A study of Homo sapiens with 6 samples.

Results

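Binding of the zinc finger transcription factor ZNF335 was described at the promoters of 5 genes that serve the entry of proteins into the endoplasmic reticulum: SEC61B, ALG2, SEC11C, NCLN and EMC1. The genes were represented by 4 intervals of hg19, because SEC61B and ALG2 are transcribed away from each other out of 1 shared promoter. These intervals were chr9:101983800-101985200 for SEC61B and ALG2, chr18:56806400-56807600 for SEC11C, chr19:3185100-3186500 for NCLN and chr1:19577500-19579200 for EMC1. A peak was taken as a member when it overlapped an interval by at least 1 bp. The members were 6 of the 634 peaks from cells with the wild-type protein (WT), 5 of the 174 peaks from cells with the bloto protein, and 0 of the 1 peak from control cells. Every member lay wholly inside its interval. The intervals were chosen by the presence of peaks in the lists of both tagged lines, with their folds known, so the presence and height of these peaks are a description and were not tested.

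All cells were Jurkat T-REx, a human leukaemic T cell line with a tetracycline repressor, in which doxycycline turns on a gene placed behind the matching promoter. Stable lines were grown from single transfected cells and expressed 3xFLAG-tagged WT ZNF335 or 3xFLAG-tagged ZNF335 with the substitution R1092W, called bloto, from a plasmid with a GFP reporter; the control expressed no tagged protein. Expression was induced overnight with doxycycline per the labels' treatment protocol, and chromatin was precipitated with the anti-FLAG M2 antibody, so that the tagged protein and not the cells' own ZNF335 was read. The 6 samples were 3 ChIP and 3 input libraries, 1 of each per condition, and no difference between the lines has a replicate check. The tagged form, the clone and the library cannot be told apart. The bloto ChIP library was 1.07 times as deep as the WT library, as recovered from the peak lists. Its 1 peak does not give the depth of the control library.

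Secreted and membrane proteins enter the endoplasmic reticulum through the Sec61 channel, and SEC61B encodes the beta subunit of that channel. SEC11C encodes a catalytic subunit of the signal peptidase complex, which cuts signal sequences from the entering chains. NCLN encodes nicalin, a membrane protein that works with NOMO and TMEM147 beside the channel during the insertion of proteins with several membrane segments. EMC1 encodes the large lumenal subunit of the endoplasmic reticulum membrane protein complex, an insertase for membrane segments. ALG2 encodes a mannosyltransferase that builds the lipid-linked sugar chain later moved onto entering proteins. ZNF335 is a C2H2 zinc finger protein, and the series concerns its recognition of separate DNA motifs by separate groups of fingers.

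The promoters are shown by the 250 bases before each RefSeq start site of GRCh38.p14, printed 5′ to 3′ on the strand of the gene, because they hold the letters that the sites share. All 5 genes were found in the RefSeq promoter table. Peak positions here are on hg19, and no hg19 genome or annotation was used, so the peaks were not placed on these letters or on exons and introns. Capitals mark matches on either strand to CCTGTAG, to CTACNNNTCCC (N is any base) and to TGCCTGT.
SEC61B, chr9:99222032-99222281, plus strand: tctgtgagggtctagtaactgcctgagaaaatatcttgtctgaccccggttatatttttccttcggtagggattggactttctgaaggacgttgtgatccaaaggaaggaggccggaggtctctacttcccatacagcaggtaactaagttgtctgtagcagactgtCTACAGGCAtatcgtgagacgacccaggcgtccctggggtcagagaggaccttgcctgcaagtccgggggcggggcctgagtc
ALG2, chr9:99221943-99222031, minus strand, the 89 bases next to its start that the SEC61B stretch does not hold: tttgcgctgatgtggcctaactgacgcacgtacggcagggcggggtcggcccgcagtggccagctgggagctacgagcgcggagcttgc
SEC11C, chr18:59139634-59139883, plus strand: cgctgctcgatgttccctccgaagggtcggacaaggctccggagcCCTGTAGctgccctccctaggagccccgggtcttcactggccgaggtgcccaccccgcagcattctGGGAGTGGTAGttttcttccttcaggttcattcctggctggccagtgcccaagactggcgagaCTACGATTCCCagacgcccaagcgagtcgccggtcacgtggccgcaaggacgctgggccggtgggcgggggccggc
NCLN, chr19:3185680-3185929, plus strand: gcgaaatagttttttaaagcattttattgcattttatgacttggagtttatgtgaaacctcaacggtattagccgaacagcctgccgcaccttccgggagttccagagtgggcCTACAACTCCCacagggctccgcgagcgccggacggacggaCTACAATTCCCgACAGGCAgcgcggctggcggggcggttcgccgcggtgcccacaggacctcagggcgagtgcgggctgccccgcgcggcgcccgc
EMC1, chr1:19251525-19251774, minus strand: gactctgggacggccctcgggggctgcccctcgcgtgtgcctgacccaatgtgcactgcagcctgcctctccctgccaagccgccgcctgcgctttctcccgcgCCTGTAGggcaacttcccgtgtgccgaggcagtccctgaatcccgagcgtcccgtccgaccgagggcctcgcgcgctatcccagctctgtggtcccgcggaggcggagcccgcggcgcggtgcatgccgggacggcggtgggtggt

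The starts of SEC61B and ALG2 lay 340 bp apart in GRCh38.p14, and their 250-base windows shared 161 bases. EMC1 had a similar neighbour: the start of MRTO4, a gene for a ribosome assembly factor on the other strand, lay 281 bp from that of EMC1. A peak at either pair cannot be assigned to 1 of its genes.

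No run of 7 bases occurred at all 4 sites on either strand (SEC61B and ALG2 counted as 1 site), and 8 runs occurred at 3 of them. The rarest of the 8 over all promoters was CCTGTAG (or its complement CTACAGG), which was present before SEC61B, SEC11C and EMC1 and in 2.15% of the 34943 distinct RefSeq windows of the same length. It ran from base 83 to base 77 before the SEC61B start, from 205 to 199 before that of SEC11C and from 146 to 140 before that of EMC1. The other 7 runs were GC-rich and were present in 7.76% to 29.5% of windows.

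CTACNNNTCCC was the 1 pattern of 4 bases, 3 bases of any kind and 4 bases that occurred at least 2 times at each of 2 sites, and it was present in 2.76% of windows. The SEC11C window held CTACGATTCCC from base 76 to 66 before the start and, on the other strand, GGGAGTGGTAG from 139 to 129. The NCLN window held CTACAACTCCC from 137 to 127 and CTACAATTCCC from 96 to 86. TGCCTGT, present in 4.30% of windows, occurred before SEC61B and NCLN on the minus strand, as ACAGGCA. In the SEC61B window it overlapped the match to CTACAGG, and in the NCLN window it began after the single base that follows CTACAATTCCC. The motifs were chosen after reading these 5 windows, and a match is a description of letters and no evidence of a bound site.

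The windows also differed in base composition. GC content was 53.2% for SEC61B, 54.4% for ALG2, 61.6% for NCLN, 66.8% for SEC11C and 72.8% for EMC1. The median of all windows was 58.0% (interquartile range 46.4% to 68.0%). SEC61B had 9 CpG dinucleotides and ALG2 14, while SEC11C, NCLN and EMC1 had 20, 26 and 29, against a median of 11 (3 to 23). The SEC61B window was thus below the median in both measures and the EMC1 window above the upper quartile in both.

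Among 73 genes listed for protein entry, membrane insertion, signal cleavage and N-glycan assembly, 61 matched the promoter table, with 82 windows. CCTGTAG was found in 7 windows of 6 genes, which are SEC61B, SEC11C and EMC1 themselves plus SEC61A2, GET3 and NOMO2. CTACNNNTCCC was found in 7 windows of 7 genes, NCLN and SEC11C plus SPCS2, SRPRB, SSR2, SSR3 and TMEM147. SPCS2 is a partner of SEC11C in signal peptidase, and TMEM147 is a partner of nicalin. SPCS3 in signal peptidase and NOMO2 beside nicalin were matched and did not hold this pattern, nor did the listed genes SEC11A, TMCO1 and CCDC47. SPCS1, NOMO1 and NOMO3 were missing from the promoter table. TGCCTGT was found in 6 windows of 6 genes, SEC61B and NCLN plus ALG13, EMC3, KRTCAP2 and MAGT1. These are 8.54%, 8.54% and 7.32% of the listed windows, beside 2.15%, 2.76% and 4.30% of all windows. The listed shares include the members on which the motifs were chosen, which raises them by construction. Without the members, 3, 5 and 4 listed genes held the motifs, so no enrichment is read from these shares. Whether the other listed genes carry a ZNF335 peak was not analysed here.

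Each of the 4 promoters had a peak in both tagged lines and none in the control line. The fold of a peak is the authors' value, the ChIP pileup over the local background under the summit, and belongs to its own list. The reads are the ChIP reads covering the summit, recovered from the fold and the p-value. At the channel gene promoter, SEC61B with ALG2, the WT peak chr9:101984181-101984748 had a fold of 13.9 and 64 reads, and the bloto peak chr9:101984242-101984747 had a fold of 18.8 and 50 reads. At the signal peptidase gene SEC11C, the WT peak chr18:56806753-56807191 had a fold of 13.5 and 62 reads, and the bloto peak chr18:56806753-56807131 a fold of 18.1 and 52 reads.

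The nicalin gene was the weakest of the 4 in both lines. The WT peak at NCLN, chr19:3185301-3186284, had a fold of 10.3 and 47 reads. Its 2 bloto peaks reached folds of 6.59 with 21 reads (chr19:3185650-3186101) and 6.47 with 18 reads (chr19:3185307-3185470).

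The EMC1 promoter had the highest WT peak of the 4, chr1:19577812-19578622, with a fold of 16.5 and 66 reads. Its bloto peak chr1:19577879-19578302 had a fold of 8.77 and 42 reads. The order of the promoters by fold therefore differed between the lists: EMC1 stood above the other promoters in WT and below SEC61B/ALG2 and SEC11C in bloto. In WT the summit reads of EMC1, SEC61B/ALG2 and SEC11C were close, at 66, 64 and 62, and the order has no replicate check.

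**Figure D1:**
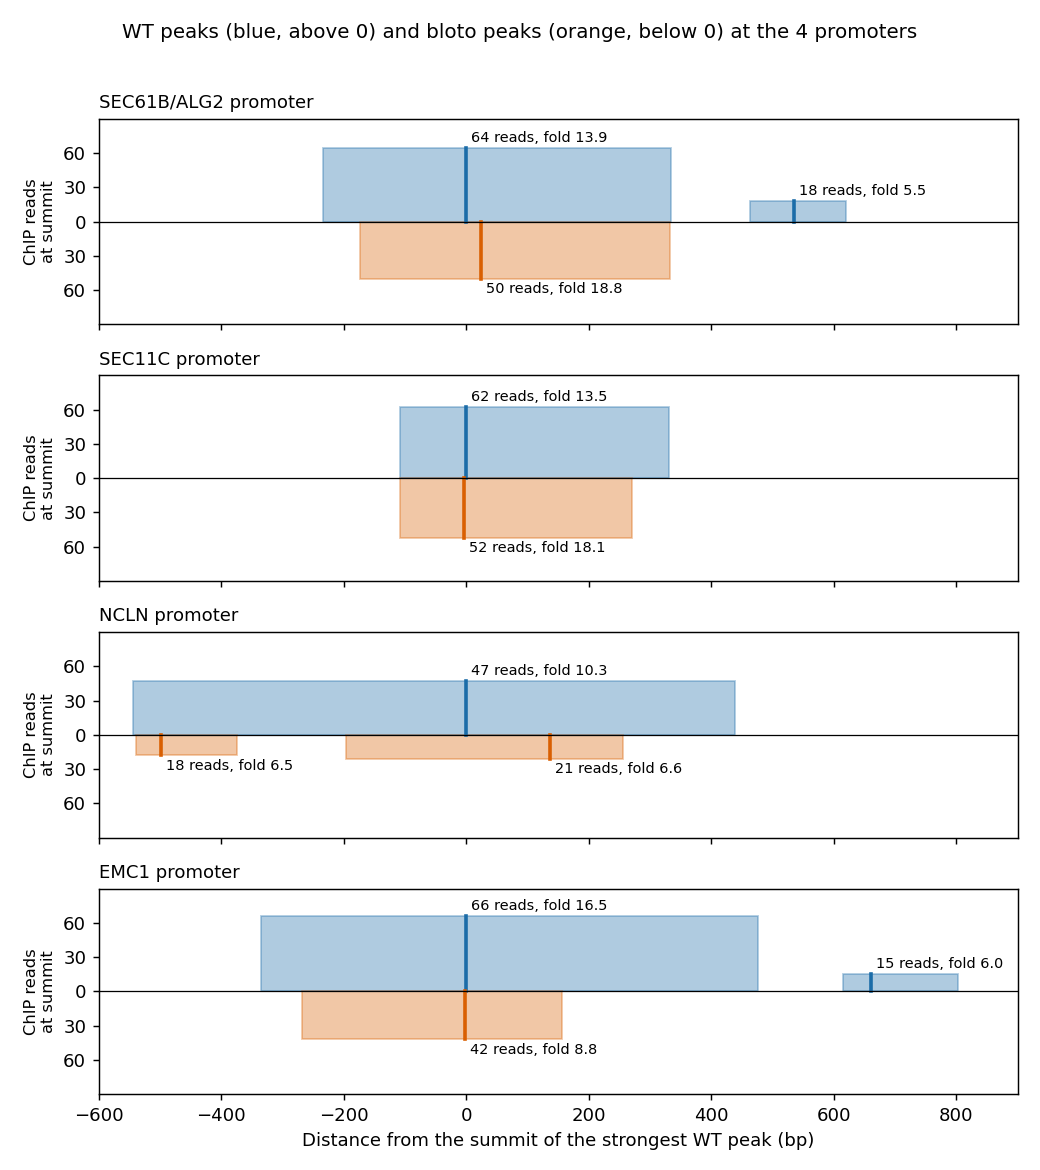
Peaks at the 4 promoters by distance in bp from the summit of the strongest WT peak (horizontal axis), with ChIP reads at the summit as the height (vertical axis), WT in blue above 0 and bloto in orange below 0. Boxes span the called peaks and lines mark summits. The summits lie close together at SEC61B/ALG2, SEC11C and EMC1, while the NCLN promoter has 1 wide WT peak over 2 bloto peaks.

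Within the WT list of 634 peaks, the strongest peaks of the 4 promoters ranked 39th by fold (EMC1), 69th (SEC61B/ALG2), 78th (SEC11C) and 141st (NCLN). Within the bloto list of 174 peaks, SEC61B/ALG2 had rank 1 together with chr20:36156159-36156740, which had the same fold of 18.8. SEC11C had rank 5, EMC1 rank 85 and NCLN rank 128. Ranks in lists of different length do not show a change. The bloto ranks depended on the measure: by summit reads SEC61B/ALG2 had rank 18, SEC11C rank 14 and EMC1 rank 47.

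In the bloto list the peak next below SEC61B/ALG2 by fold was chr11:34072828-34073442 with 18.5. The peaks around SEC11C were chr19:51307633-51308320 above it, with 18.4, and chr13:27825389-27825820 below it, with 16.7. In the WT list the neighbours of EMC1 were chr7:10979525-10980331 with 16.6 and chr6:10694781-10695318 with 16.1. At SEC11C and at NCLN the next WT peak had the same fold as the member, 13.5 at chr2:240964643-240965283 and 10.3 at chr1:151735788-151736388. Neighbours in a list sorted by fold have close values by construction, so nothing is read from this closeness.

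After scaling to equal depth and subtraction of the local background, fewer reads stood over the summit in bloto than in WT at all 4 promoters, by unequal amounts. The same was true of all 166 shared sites, the WT peaks with an overlapping bloto peak, where the highest ratio of bloto to WT was 0.946. The direction is therefore no trait of these promoters. The ratio of bloto to WT summit signal was 0.746 at SEC61B/ALG2, with an exact 95% interval of 0.496 to 1.11. It was 0.800 at SEC11C (0.533 to 1.19), 0.564 at EMC1 (0.354 to 0.872) and 0.401 at NCLN (0.206 to 0.720). The NCLN ratio compares summits 136 bp apart, and the bloto reads at the WT summit are not known. The intervals come from the exact binomial interval of bloto reads among both libraries' reads and cover counting error only, with depth and background held fixed. At SEC61B/ALG2 and SEC11C they include 1, so a difference between the libraries was not detectable there at this depth. Those of NCLN and EMC1 lie below 1. The 4 intervals overlap one another, and the promoters were picked with their folds known. They are therefore not split into changed and unchanged promoters.

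Over all 166 shared sites the median ratio was 0.539 (interquartile range 0.458 to 0.625). Counted from the lowest of these 166, SEC11C had rank 164, SEC61B/ALG2 rank 155, EMC1 rank 98 and NCLN rank 20. The counting intervals of all 4 promoters hold the median of 0.539, so none of them is set apart from the middle of the shared sites by more than counting error. Of the 6 WT peaks at the promoters, 4 overlapped a bloto peak, against 26.2% of all WT peaks, and the 5 bloto peaks all overlapped a WT peak, against 98.9% of all bloto peaks. The promoters were picked for having peaks, so nothing is read from these shares.

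**Figure D2:**
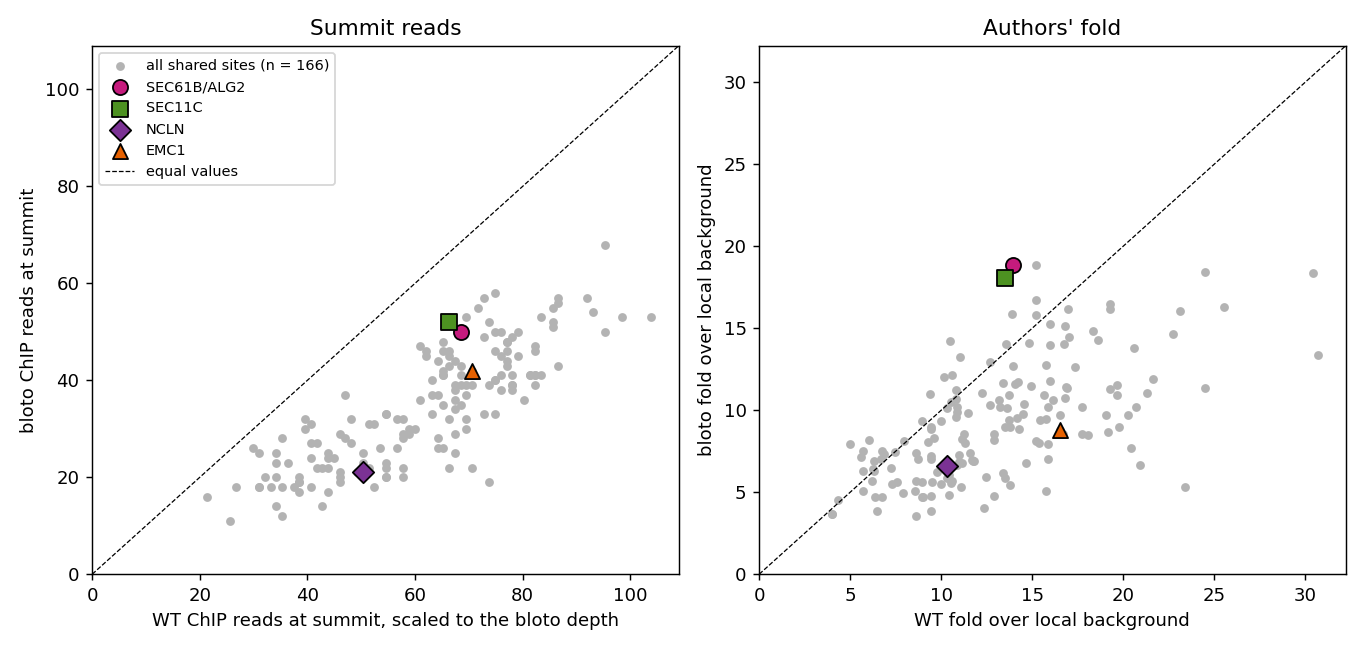
Bloto against WT values at the 166 shared sites (grey points) and the 4 promoters (coloured symbols), for summit reads with WT scaled to the bloto depth (left) and for the authors' fold over local background (right). The dashed line marks equal values: all 4 promoters lie below it for reads, while SEC61B/ALG2 and SEC11C lie above it for fold.

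The authors' folds gave another order than the reads at the channel and signal peptidase genes. The bloto fold was 1.35 times the WT fold at SEC61B/ALG2 and 1.34 times at SEC11C, although the bloto reads were fewer. At NCLN and EMC1 the bloto fold was 0.639 and 0.531 of the WT fold. The bloto fold was above the WT fold at 27 of the 166 shared sites, which is 16.3%. Counted from the lowest of the 166 fold ratios, SEC61B/ALG2 had rank 163 and SEC11C rank 162.

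The local backgrounds under the summits also had different values in the lines. Each was only a few reads and was given no counting interval, so a difference in background was not tested. At SEC61B/ALG2 the background under the summit was 3.75 reads in WT at the bloto depth and 1.71 reads in bloto. SEC11C had 3.75 and 1.94 reads, and NCLN 3.75 and 2.34 reads. EMC1 was the exception, with 3.10 reads in WT and 3.90 in bloto. The ratio of bloto to WT background was 0.456, 0.517, 0.624 and 1.26 in that order of promoters, against a median of 0.786 at the 166 shared sites (interquartile range 0.547 to 1.07). The bloto background was the lower one at 116 of the 166 shared sites, among them all 27 with a bloto fold above the WT fold. Fold is a ratio of ChIP to background, and the bloto signal was the lower one at all 166 sites. A higher bloto fold thus goes with a lower bloto background by construction, and nothing is read from the 27. The part of the backgrounds in the order of the folds was not tested.

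**Figure D3:**
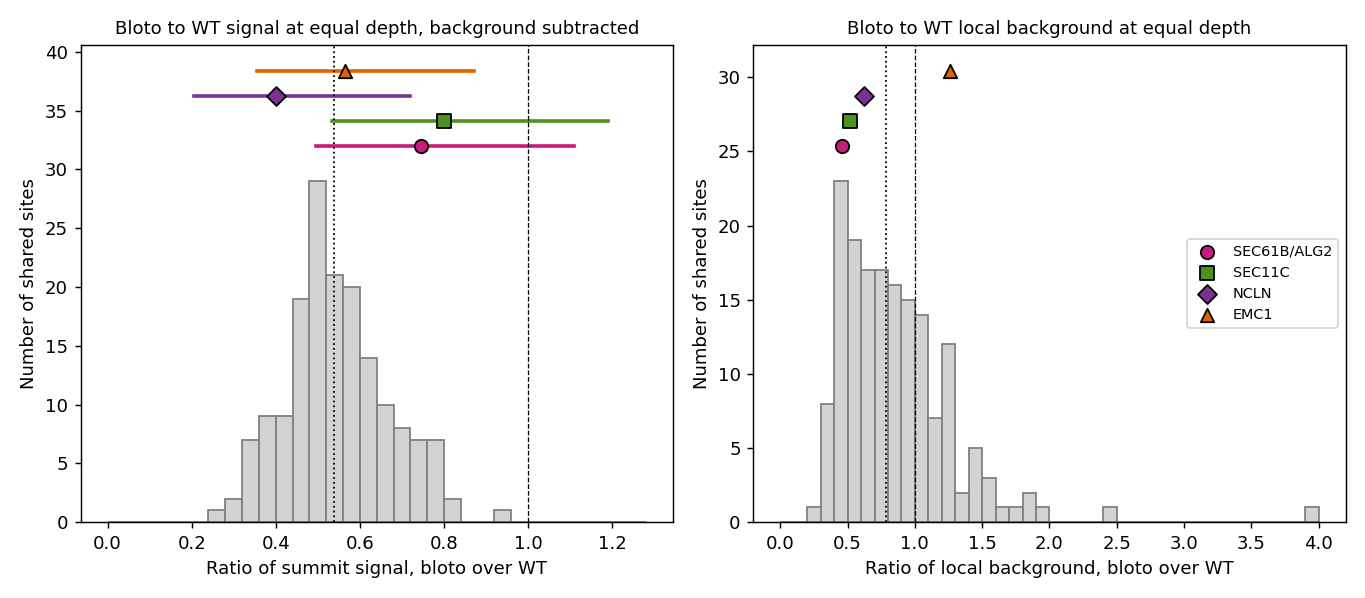
Distributions over the 166 shared sites of the bloto to WT ratio of summit signal (left) and of local background (right), both at equal depth, with the number of sites on the vertical axis. Symbols mark the 4 promoters at arbitrary heights, bars on the left are exact 95% intervals for counting error, dotted lines are medians and dashed lines mark equality. SEC61B/ALG2 and SEC11C lie high for signal and low for background, and EMC1 is the only 1 of the 4 with a background ratio above 1.

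The summits of both lines lay close together at 3 promoters. The strongest bloto peak had its summit at a distance from that of WT which was 2 bp at EMC1, 4 bp at SEC11C and 24 bp at SEC61B/ALG2, against a median of 18.5 bp over the 166 shared sites. At SEC11C the peaks of both lines also began at the same base. At NCLN the distance was 136 bp, and NCLN was 1 of 13 shared sites with more than 100 bp. With 1 library per line these distances have no error estimate.

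NCLN also differed in the shape of its peaks. Its WT peak was 984 bp wide, as wide as or wider than 98.4% of WT peaks, and contained both bloto peaks, which were 452 bp and 164 bp wide. The bloto peaks were separated by 179 bp without a call and their summits by 635 bp, and the WT summit at 3185846 lay between the bloto summits at 3185347 and 3185982. Of the 166 shared WT peaks, 6 overlapped 2 bloto peaks, which is 3.61%. At the other promoters the bloto peak was 506 bp wide against 568 bp in WT (SEC61B/ALG2), 379 bp against 439 bp (SEC11C) and 424 bp against 811 bp (EMC1). The bloto peak was thus nearly as wide as the WT peak at SEC61B/ALG2 and SEC11C and narrower at EMC1, with 0.523 of the WT width. Such narrowing was not particular to EMC1. Other shared sites had lower values, such as 0.373 at chr1:35497063-35497641 and 0.307 at chr1:76250906-76252050.

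A second, smaller WT peak accompanied the main one at 2 promoters. At SEC61B/ALG2 it was chr9:101984878-101985034, with a fold of 5.47 and 18 reads, and its summit lay 535 bp from the main WT summit. At EMC1 it was chr1:19578761-19578949, with a fold of 6.02 and 15 reads, 661 bp from the main summit. These had 28.1% and 22.7% of the reads of their main peaks. In the WT list 14.0% of peaks had another WT peak within 1000 bp.

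Neither second peak had a bloto counterpart. The bloto peak ended 130 bp before the second WT peak at SEC61B/ALG2 and 458 bp before it at EMC1. With the WT background, 14 and 11 bloto reads would have given the smallest −log10 p called in bloto, 6.76. At that background a signal under those numbers was not detectable. The bloto background at the second peaks is not known, and a lower one would lower these limits. The lowest number of reads at a called bloto peak was 11. Scaled to the bloto depth, the second WT peaks had 19.3 reads at SEC61B/ALG2 and 16.0 at EMC1, above the limits of 14 and 11. That scaling assumes an equal signal in both lines, while the median ratio of bloto to WT at shared sites was 0.539. No loss of a peak is therefore read from these numbers. A bloto signal that was lower but present cannot be told from an absent one. Both second peaks were also among the less certain of the WT list, with a −log10 q of 4.91 and 4.47, and a limit of 5 removes them. No further peak lay near the promoters: the nearest other WT peak was 248 kb from the NCLN interval, 876 kb from that of SEC61B/ALG2, 2488 kb from that of SEC11C and 11494 kb from that of EMC1.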

How the data were processed

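The data were the authors' peak lists of the 3 ChIP libraries; the inputs were used by the authors as background only. The submitters' processing notes name MACS2, BWA, SAMtools, cutadapt 1.4.1 and CASAVA 1.8.2, with hg19; the peak cutoff is not given in the sources used here, nor which input went with which ChIP. Each deposited peak has a fold (ratio of ChIP to local background), its p-value and its list-wise q-value as −log10, a score made from the latter, and a summit offset. Peaks were called per library.

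Reads were recovered from fold, taken as (pileup + 1)/(background + 1), and the Poisson p-value. The pileups came out as whole reads, within 0.001 reads, for 634 of 634 WT peaks, at a scale of 0.856, and for 174 of 174 bloto peaks. On 300 simulated peaks per list 100% of reads were recovered, which checks the arithmetic only. The lowest background, 1.27 reads in WT and 1.35 in bloto, gave the depth ratio and assumes equal genome size and read extension. An overlap of 1 bp or more made peaks shared; at a WT peak the overlapping bloto peak with the most reads was used. With 1 library per condition no test was run. All members, and the peaks next to them by fold, were named; this rule, the members, lists and alternatives were chosen with earlier results of these data known. Promoter letters are from RefSeq, GRCh38.p14. Python 3.11.15, numpy 2.4.6, pandas 2.3.3, scipy 1.17.1 and matplotlib 3.10.9 were used.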

Additional observations from a re-analysis of the deposited data

How the results depend on the processing

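Of 58 values recomputed under the alternatives, 49 stayed within the counting interval or within 1.5 times of the reported value, 7 moved further and 2 changed direction. With the ratio of the authors' folds in place of recovered reads, the bloto to WT ratio was 1.35 at SEC61B/ALG2 and 1.34 at SEC11C, above 1 instead of below; the cause was not tested. A −log10 q of at least 5 left 1 WT peak at SEC61B/ALG2 and 1 at EMC1. Ranked by summit reads, the bloto peaks at SEC61B/ALG2, SEC11C and EMC1 had ranks 18, 14 and 47, and by −log10 p the first pair had ranks 5 and 3. Reciprocal overlap of at least 50%, or summits at most 100 bp apart, left 3 of the 6 WT peaks with a bloto peak, without NCLN. The match of the gene list to peaks was not run, since no hg19 annotation was used. No paired analysis was possible because there is only 1 library per condition, so leaving one out was not possible either. Depth limits the ratios: 21 to 66 reads lie under each strongest summit.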
